A study of Mus musculus with 65 samples.

Results

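Bone of 28-month-old mice was compared with bone of 4-month-old mice, using 5 arrays at each age, 10 of the 65 arrays of the series. The 10 arrays were taken by their labels (bone at 28 months and bone at 4 months). All mice were male, wild-type and of the C57BL/6J strain, and received no treatment. The tissue was the tibia, frozen, powdered and extracted whole, so that the RNA came from bone cells, marrow and whatever stayed attached to the bone. A further 5 bone arrays at 18 months and 10 thigh muscle arrays at 28 and 4 months were used beside them. Each array was hybridised with RNA of 1 mouse. The 28-month bones and muscles came from the same 5 mice, whereas the 4-month bones and muscles came from different mice. Age and mouse cohort cannot be told apart in these groups.

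Bone is made by osteoblasts, which lay down type I collagen and mineral. Some of them become buried as osteocytes, which sense load and signal to the cells at the surface through secreted proteins such as sclerostin. Osteoclasts, which arise from the same blood lineage as macrophages, dissolve the mineral with acid and digest the matrix with proteases. The cavity of a long bone holds marrow, where red cells, granulocytes, platelets and B cells are formed, together with macrophages, fat cells and stroma. A whole-bone extract measures all of these at once, and fewer cells of a type and less RNA per cell cannot be told apart in it. Mouse bone is known to lose mass with age and to gain marrow fat.

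Each gene value is the mean log2 signal over the probe sets of the gene, a probe set being a group of probes within 1 exon. A change is the 28-month mean minus the 4-month mean on that scale, given with its standard error (SE). Unless another fit is named, the SE and adjusted p come from a fit of all arrays, with the spread pooled over all tissues. They can understate the spread between bones where a gene varies little in the other tissues. For Rag1 the standard deviation at 28 months was 1.35 in bone and 0.21 in muscle, and the same SE of 0.29 served both tissues. "Rose" and "fell" are used for genes with an adjusted p below 0.05 (limma, Benjamini-Hochberg over all 15830 genes), and "called" for those that also changed at least 2-fold. Of the 15830 genes, 1289 rose (8.14%) and 1023 fell (6.46%), and 452 were called (2.86%), 326 of them higher and 126 lower at 28 months. The 5 arrays of 1 age all lay above the 5 of the other for 2635 genes (16.6%). The median change of all genes was -0.05. Between 18 and 4 months, 54 genes rose (0.341%) and 134 fell (0.846%). Between 28 and 18 months, 385 of all genes rose and 277 fell. A list with no rise between 18 and 4 months is to be read against these small shares. When the change of a list began was not tested.

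The list means of osteoblast, osteocyte, osteoclast, neutrophil and macrophage genes lay between 5.19 and 10.76 on the 10 arrays, although single markers were near the floor on some, and keratinocyte markers were low, with a list mean between 3.15 and 3.47. The lower quartile of the log2 signals was 3.19 to 3.35 on the 10 arrays, and gene values close to 3 were taken as near the floor. A change to or from such values is limited by the floor. 1 array stood apart. In 28-month replicate 5 the mean of 23 erythroid genes was 5.36, against 8.59 to 9.28 on the other 28-month arrays and 9.21 to 9.37 on the 4-month arrays. Its mean over 37 osteoblast and matrix genes was 5.70, against 6.39 to 7.69 on the other 28-month arrays. Its macrophage and neutrophil list means were the highest of the 10 arrays. Counts are therefore also given without it. Without this array, 833 genes rose (5.26%) and 535 fell (3.38%), and 381 were called. Of the 326 genes called higher in all arrays 276 were again called higher without it, and of the 126 called lower 66 were again called lower.

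**Figure D1:**
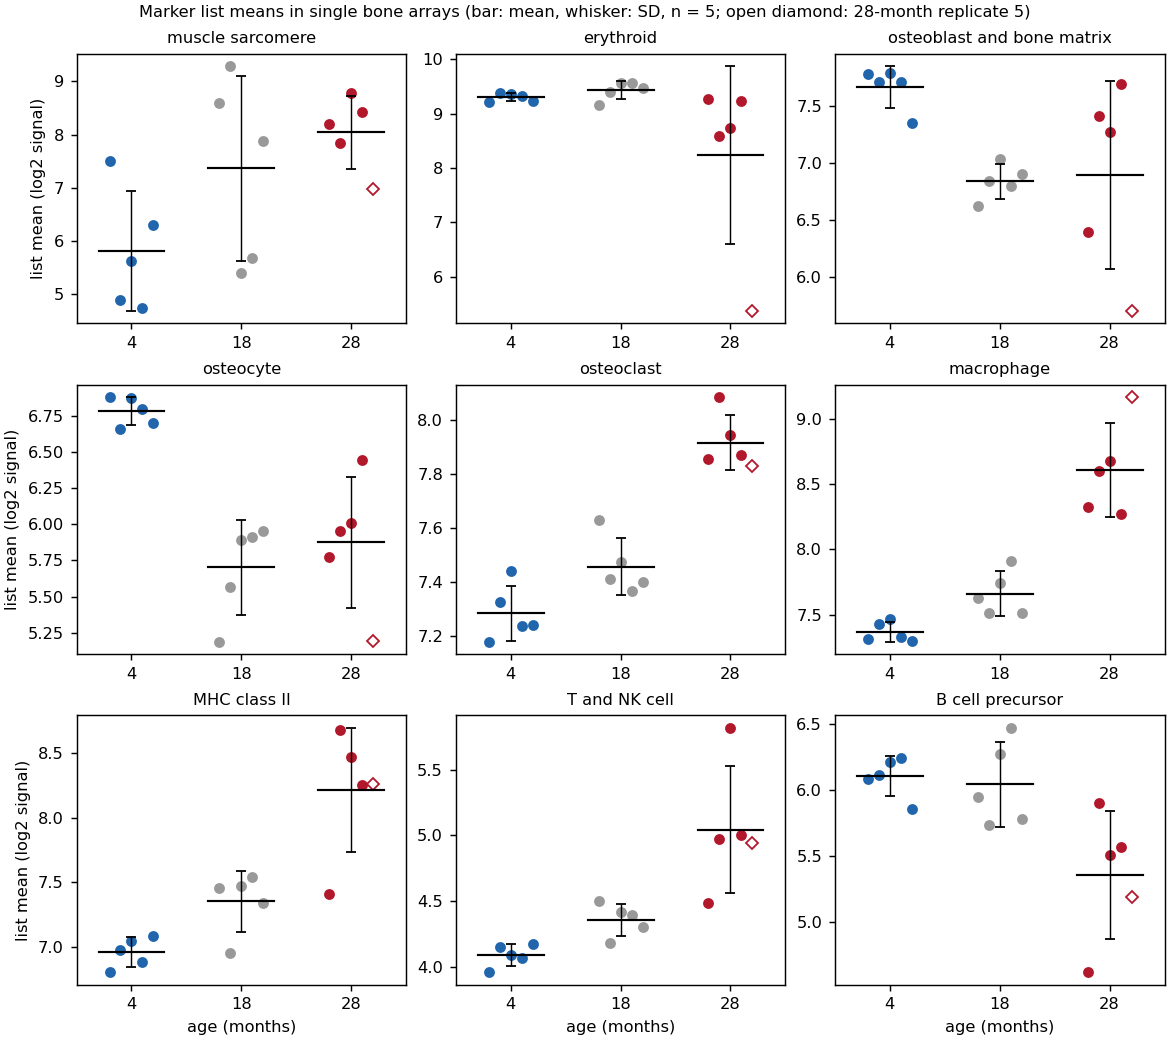
Mean log2 signal of 9 marker lists (vertical axes) in single bone arrays at 4, 18 and 28 months (horizontal axes). Points are arrays, bars are means and whiskers SD (n = 5). The open diamond is 28-month replicate 5, which had the lowest erythroid mean (5.36), and the macrophage means of all 28-month arrays were above those of all 4-month arrays.

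Genes of skeletal muscle made up a part of the difference. The genes of the contractile apparatus rose at 28 months, 17 of the 28 measured sarcomere genes, with none lower and a median change of 2.20. The mean over these 28 genes was 8.19, 7.84, 8.79, 8.42 and 6.99 on the 28-month arrays, against 7.50, 4.90, 5.62, 4.74 and 6.30 on the 4-month arrays. The groups overlapped, because 4-month replicate 1 lay above 28-month replicate 5. At 18 months the same mean was 8.59, 9.28, 5.40, 5.69 and 7.87. The level thus varied widely between bones of 1 age. It was 10.39 to 11.10 in thigh muscle of the same 28-month mice and 10.05 to 10.84 in thigh muscle at 4 months.

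Actn2, which encodes the alpha-actinin that anchors thin filaments at the Z disc, measured 8.91, 8.00, 9.50, 9.13 and 8.24 at 28 months, against 6.94, 4.12, 3.87, 3.50 and 4.83 at 4 months. All 28-month bones lay above all 4-month bones. The change was 4.10 ± 0.74 (SE, adjusted p = 7.26e-05). Myh2, the myosin heavy chain of fast oxidative fibres, measured 9.66, 8.45, 10.12, 9.72 and 7.55 at 28 months, against 8.09, 4.88, 4.10, 4.06 and 5.53 at 4 months. Its groups overlapped at 4-month replicate 1. The change was 3.77 ± 0.77 (adjusted p = 0.000439). The other members with the strongest changes were Nrap and 8030451F13Rik (now Mybpc1), proteins of the sarcomere, with 3.32 ± 0.75 and 3.87 ± 0.73, and Des, the muscle intermediate filament, with 3.32 ± 0.75. Myot, another Z disc protein, changed by 3.60. Acta1, the skeletal alpha-actin, changed by 1.70 ± 0.60 (adjusted p = 0.0455), a call that was lost when any 1 of 7 arrays was left out (28-month replicates 1 to 4 and 4-month replicates 2, 3 and 4; adjusted p up to 0.156). Ckm, the muscle creatine kinase, had a change of 2.19 ± 0.84 that missed the threshold (adjusted p = 0.0694).

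Genes of muscle energy supply and calcium handling rose as well, 10 of 27 with a median change of 1.81, among them Cacng1 (2.34), Jph1 (2.08) and the oxygen store Mb (2.42 ± 0.68, adjusted p = 0.0117, lost without 4-month replicate 4). Among 19 regulators and membrane proteins 7 rose, with Des, Myf6 (2.80), a transcription factor of mature fibres, and Fbxo32 (1.94), a ubiquitin ligase of muscle atrophy, at the top. Myod1 and Pax7, markers of myoblasts and satellite cells, had changes of 0.08 and -0.15 (adjusted p = 0.851 and 0.292). These counts leaned on single arrays. Without 28-month replicate 3 or 4-month replicate 2 or 4 the sarcomere count was 8, 9 and 9 of 28 and the energy and calcium count 4, 4 and 3 of 27. The count of regulators was 4 of 19 without 28-month replicate 3 or 4-month replicate 4.

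To set these transcripts apart, a muscle-enriched class was defined without any bone array, as genes whose mean in 4-month muscle was at least 2 log2 units above both 4-month thymus and 4-month white adipose tissue. It held 466 genes, with a median change in bone of 0.37, against -0.06 for the other 15364 genes. In the class 75 genes were called (16.1%), 71 higher and 4 lower at 28 months. Outside it 377 were called (2.45%), 255 higher and 122 lower. Without 28-month replicate 5 the class held 88 called genes, 87 of them higher. The count in the class was 43 without 28-month replicate 3, 46 without 4-month replicate 2 and 43 without 4-month replicate 4.

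The mean of the sarcomere, energy and calcium genes was then entered as a covariate in a fit of the 15 bone arrays. In that fit 1002 genes rose (6.33%) and 385 fell (2.43%). In the class 15 genes were called, 5 higher and 10 lower, whereas 341 genes were called outside it, 239 higher and 102 lower. Bone alone without the covariate gave 47 called genes in the class. Actn2 had 1.82 (adjusted p = 0.00994) with the covariate, Myh2 0.98 (adjusted p = 0.0954), Des 0.77 (0.143) and Mb 0.09 (0.88), while Acta1 turned to -0.0705 (0.831). Actn2, Myh2, Acta1 and Mb are among the genes averaged in the covariate, so that their values in this fit are partly built in. Des is not among them. With the covariate and without 28-month replicate 5, 7 genes in the class and 157 outside it were called. Which cells in or on the bone the muscle transcripts came from was not tested.

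**Figure D2:**
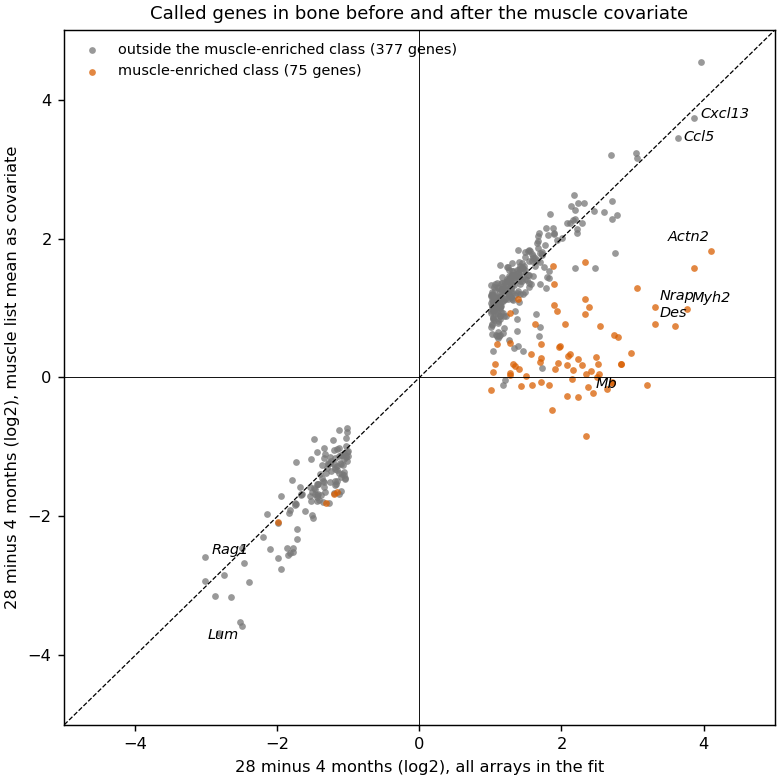
Change in bone, 28 minus 4 months in log2, of the 452 called genes in the fit of all arrays (horizontal axis) and in bone alone with the mean of the muscle genes as a covariate (vertical axis). Orange points are the 75 genes of the muscle-enriched class and grey points the 377 others. The dashed line marks equal values. Most orange points lie near 0 on the vertical axis, while most grey points lie along the dashed line. The covariate averages genes of the muscle-enriched class, so that the position of the orange points is partly built in.

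The genes by which osteocytes are recognised were lower at 28 months. Of 14 measured osteocyte genes 9 fell and 1 rose, with a median change of -0.88. Sost, which encodes the Wnt inhibitor sclerostin, measured 8.10, 7.44, 8.37, 8.77 and 7.33 at 28 months, against 10.17, 9.64, 9.60, 9.75 and 9.86 at 4 months. All 28-month bones lay below all 4-month bones, and the change was -1.80 ± 0.29 (adjusted p = 1.08e-05). Dmp1, a matrix protein of mineralisation, measured 8.70, 10.07, 8.88, 9.66 and 8.40 at 28 months, against 10.51, 10.31, 10.84, 10.92 and 10.34 at 4 months, again without overlap (-1.44 ± 0.25, adjusted p = 3.31e-05). Phex, a peptidase of phosphate regulation, fell by 2.20 ± 0.27 on the log2 scale (adjusted p = 2.93e-08), Dkk1, another secreted Wnt inhibitor, by 2.00 ± 0.23 (3.88e-09) and Mepe, an osteocyte phosphoglycoprotein, by 1.66 ± 0.26 (4.29e-06). The member that rose was Fgf23, the hormone of phosphate excretion, with 0.38 ± 0.12 (adjusted p = 0.0251) and 0.21 (0.232) without 28-month replicate 5.

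The lower osteocyte levels were already present at 18 months. There Sost measured 5.63, 7.25, 8.34, 8.78 and 8.66, and Dmp1 6.32, 8.41, 8.72, 9.17 and 8.90, so that 18-month bones also lay below 4-month bones. Between 18 and 4 months 9 of the 14 genes fell, with a median of -0.99. Between 28 and 18 months 2 rose and none fell. The comparisons with 4 months share the same 4-month arrays. Without 28-month replicate 5, 8 of the 14 fell at 28 months with a median of -0.75. In bone alone 9 fell. With the muscle covariate and without 28-month replicate 5, 1 fell with a median of -0.58. In bone alone with the muscle covariate 4 fell with a median of -0.99. Sost had -1.47 (adjusted p = 0.138) and Dmp1 -1.08 (0.224) in the covariate fit.

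Genes of the osteoblast and its matrix fell in 15 of 37 cases, 1 rose, and the median change was -0.75. Col24a1, a minor fibrillar collagen of bone, measured 2.82, 3.99, 3.40, 4.57 and 2.67 at 28 months, against 6.15, 6.36, 6.26, 6.03 and 5.12 at 4 months. The 28-month values were near the floor in 3 bones, and the groups did not overlap (-2.50 ± 0.20, adjusted p = 1.4e-14). Col11a1, part of the collagen XI that nucleates fibrils, measured 4.48, 7.78, 6.79, 7.78 and 3.20 at 28 months, against 8.97, 9.10, 8.82, 9.13 and 8.38 at 4 months. Replicates 1 and 5 were far below the other 28-month bones. The change was -2.88 ± 0.46 (adjusted p = 9.16e-06), and -2.17 (0.000163) without replicate 5. Col11a2, its partner chain, fell by 1.73 ± 0.24. Tnfrsf11b, the osteoprotegerin that restrains osteoclast formation, fell by 2.14 ± 0.37 (adjusted p = 4.1e-05).

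The chains of type I collagen itself, Col1a1 and Col1a2, did not pass the test. Col1a1 measured 11.56, 12.83, 12.64, 12.92 and 9.25 at 28 months, against 13.12, 13.12, 13.09, 13.15 and 13.14 at 4 months. All 28-month bones were below all 4-month bones, by 0.17 or more, and the change was -1.29 ± 0.52 (adjusted p = 0.0854). The SE of this fit is shared by all tissues. Of the transcription factors of the lineage, Sp7 fell by 1.09 ± 0.33 (adjusted p = 0.0181; 0.169 without 28-month replicate 5), and Runx2 changed by -0.23 ± 0.13 (0.225). The one member that rose was Mmp13, a collagenase of hypertrophic cartilage and osteoblasts. It measured 11.93, 11.49, 11.48, 11.39 and 11.64 at 28 months, against 9.96, 10.61, 10.99, 10.20 and 10.39 at 4 months (1.15 ± 0.13, adjusted p = 3.09e-09). Without 28-month replicate 5, 9 osteoblast and matrix genes fell and 2 rose, with a median of -0.44, and with the covariate 5 fell and 2 rose, with a median of -1.01. Between 18 and 4 months 9 fell, with a median of -0.79.

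Collagens and matrix proteins of other tissues followed, 14 of 39 falling and 1 rising, with a median of -0.36. Lum, the collagen-binding proteoglycan lumican, measured 6.70, 9.05, 8.99, 9.47 and 4.62 at 28 months, against 10.76, 10.11, 10.62, 9.97 and 10.04 at 4 months. The groups did not overlap, with replicates 1 and 5 lowest (-2.53 ± 0.41, adjusted p = 1.33e-05; -1.74 without replicate 5). Tnn, the tenascin of periosteum, fell by 1.77 ± 0.19 and Loxl2, a collagen cross-linking enzyme, by 1.75 ± 0.24 (adjusted p = 3.12e-07). Col3a1 fell by 2.50 ± 0.53, and Col14a1 rose by 1.04 ± 0.34. Without 28-month replicate 5 the count was 7 lower and 1 higher. None of 11 tendon and periosteum markers passed the test, and 4 fell with the muscle covariate.

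The growth plate and joint surface are the cartilage of a tibia, and 12 of 22 cartilage genes fell, with 1 higher and a median of -0.39. Col2a1, the main cartilage collagen, measured 5.30, 6.66, 5.49, 6.34 and 4.38 at 28 months, against 7.48, 7.60, 7.80, 6.95 and 7.09 at 4 months. No 28-month bone reached a 4-month one (-1.75 ± 0.20, adjusted p = 4.66e-09). At 18 months it lay between, at 5.88 to 6.84. Acan, the aggrecan core protein, measured 2.87 to 3.00 at 28 months, against 3.19 to 4.35 at 4 months, and was thus near the floor at the older age (-0.90 ± 0.16, adjusted p = 4.1e-05). Hapln1, which links aggrecan to hyaluronan, fell by 0.54 ± 0.09. Col10a1, the collagen of hypertrophic chondrocytes, measured 3.03, 2.83, 2.89, 2.76 and 2.83 at 28 months, against 3.84, 4.25, 4.86, 2.88 and 2.88 at 4 months. The level at 4 months was raised in 3 bones and near the floor in the other 2, and the change was -0.87 ± 0.21 (adjusted p = 0.00318). Chad, chondroadherin, fell by 2.82 ± 0.60 and spanned 3.37 to 8.77 between the 4-month bones. Trpv4, a calcium channel, was the member that rose (0.64 ± 0.18; 0.56 and adjusted p = 0.0603 without 28-month replicate 5). Between 18 and 4 months 1 of the 22 fell, and with the muscle covariate 5 fell between 28 and 4 months.

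Osteoclast genes went the other way, with 15 of 21 higher, none lower and a median change of 0.69. Ctsk, cathepsin K, the protease that digests bone collagen, measured 10.16, 10.97, 10.90, 10.84 and 10.58 at 28 months, against 9.09, 9.39, 9.87, 8.81 and 9.33 at 4 months. All 28-month bones were higher (1.39 ± 0.31, adjusted p = 0.00143). Oscar, a costimulatory receptor of osteoclasts, measured 5.13, 5.47, 5.12, 5.10 and 4.40 at 28 months, against 3.57, 3.83, 4.17, 3.54 and 3.53 at 4 months. It did not overlap either, although replicate 5 was the lowest of its age (1.31 ± 0.13, adjusted p = 2.7e-11). Tm7sf4 (now Dcstamp) and 4833422F24Rik (now Ocstamp), which are needed for precursor fusion, rose by 1.15 ± 0.11 and 0.89 ± 0.15. Mmp9, a gelatinase that neutrophils also hold, rose by 0.99 ± 0.30 (adjusted p = 0.0203; 0.90 and 0.0682 without replicate 5), and the RANK receptor Tnfrsf11a by 0.53 ± 0.15.

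Acp5, the tartrate-resistant acid phosphatase used to stain osteoclasts, measured 10.29, 10.55, 10.61, 10.45 and 10.14 at 28 months, against 9.20, 9.77, 9.83, 9.43 and 9.69 at 4 months. The groups did not overlap, but the change of 0.82 ± 0.36 missed the threshold (adjusted p = 0.11; 0.0236 with the muscle covariate in bone alone). Calcr, the calcitonin receptor of mature osteoclasts, measured 3.03 to 3.68 at 28 months and 3.06 to 3.26 at 4 months and stayed near the floor. Tnfsf11, the osteoclast growth factor RANKL, changed by 0.46 ± 0.20 (adjusted p = 0.1). None of the 21 genes rose between 18 and 4 months (median 0.17), whereas 10 rose between 28 and 18 months. In the fit without 28-month replicate 5, 13 rose with a median of 0.70, and with the covariate 16 rose with a median of 0.65. Several of these genes are also made by macrophages, whose markers rose in the same bones, and their part in these changes was not tested.

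Most macrophage genes were higher at 28 months. Of 25 genes 19 rose and none fell, with a median of 1.23. The mean over the list was 8.32, 8.60, 8.67, 8.27 and 9.17 at 28 months, against 7.32, 7.43, 7.47, 7.33 and 7.30 at 4 months. All 28-month bones lay above all 4-month bones, with replicate 5 highest. C1qa, a chain of the complement protein C1q that macrophages secrete, measured 10.75, 11.27, 10.93, 10.65 and 11.47 at 28 months, against 8.999, 9.04, 9.40, 9.21 and 8.97 at 4 months (1.89 ± 0.32, adjusted p = 2.38e-05). Timd4, a receptor for dying cells on resident macrophages, measured 6.06, 7.65, 6.31, 7.79 and 7.69 at 28 months, against 4.17, 4.83, 4.21, 4.43 and 4.34 at 4 months (2.70 ± 0.34, adjusted p = 6.58e-08). Neither gene overlapped between the ages.

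Vsig4, a complement receptor of resident macrophages, rose by 3.96 ± 0.67 (adjusted p = 2.26e-05), but not in every mouse, and against 4-month values near the floor. It measured 9.01, 3.04, 8.44, 7.12 and 8.34 at 28 months, against 3.21, 3.79, 3.08, 3.11 and 2.97 at 4 months. Replicate 2 was at the floor while the other 4 were 3 log2 units or more above every 4-month bone. Lgmn, a lysosomal protease, rose by 1.39 ± 0.18, Fcgr1, an antibody receptor, by 1.40 ± 0.20 and Emr1 (now Adgre1), a surface marker of mouse macrophages, by 1.73 ± 0.27. Cd163 and Cd5l, which mark other resident macrophages, had changes of -0.42 and 0.09 (adjusted p = 0.644 and 0.897) and ranged at 28 months from 4.21 to 9.29 and from 5.64 to 9.65. No macrophage gene rose between 18 and 4 months (median 0.27), and 16 rose between 28 and 18 months. The count was 17 without 28-month replicate 5 and 19 with the covariate.

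The MHC class II genes, which present antigen on macrophages, dendritic cells and B cells, rose in 7 of 8 cases, with a median of 1.25. H2-Aa measured 10.15, 11.35, 11.18, 10.83 and 11.14 at 28 months, against 9.25, 9.41, 9.39, 9.14 and 9.74 at 4 months. H2-Eb1, a beta chain, measured 10.65, 11.53, 11.46, 11.28 and 11.20 at 28 months, against 9.68, 10.18, 10.20, 9.77 and 10.001 at 4 months. In both genes every 28-month bone was higher, replicate 1 least so. The changes were 1.54 ± 0.27 (adjusted p = 3.31e-05) and 1.26 ± 0.24 (0.000176). H2-DMa, which loads peptides, rose by 1.24 ± 0.18 (6.59e-07). The member that missed the threshold was Ciita, the coactivator of the family (0.57 ± 0.25, adjusted p = 0.109). Of the 8, 7 rose without 28-month replicate 5 and 5 rose with the covariate.

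Interferon-responsive genes rose in 15 of 26 cases and none fell, with a median of 0.91. Gbp2, a guanylate-binding protein of cell-autonomous defence, measured 6.94, 8.02, 7.32, 8.40 and 7.19 at 28 months, against 4.97, 5.87, 5.43, 5.82 and 4.84 at 4 months, without overlap (2.19 ± 0.41, adjusted p = 0.000128). Gbp3 rose by 1.42 ± 0.34 (adjusted p = 0.00299) and Zbp1, a nucleic acid sensor, by 1.39 ± 0.34 (0.00347). Of the classic antiviral members, Mx1 and Mx2 changed by 0.37 and -0.03, Rsad2 by -0.81 and Ifit1 by 1.22, of which only Ifit1 passed. None of the 26 rose between 18 and 4 months. The count was 12 without 28-month replicate 5 and 12 with the covariate.

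Promoter windows of 4 genes of these 2 lists are shown because members of each list rose together. They are from RefSeq on GRCm38.p6, read in the direction of transcription, 120 bases each, with every match on either strand in capitals, matches that overlap each other included. For class II genes the letters searched were GATTGG, or CCAATC on the other strand, the core of the Y box of these promoters. For interferon-responsive genes they were GAAA, any 2 bases and GAAA again, or the reverse complement, a form of the interferon-stimulated response element. The windows are on chromosome 17 from 34287824 to 34287943 (minus strand) for H2-Aa and from 34305747 to 34305866 (plus strand) for H2-Eb1, and on chromosome 3 from 142620543 to 142620662 for Gbp2 and from 142559924 to 142560043 for Gbp3 (both plus strand).
H2-Aa: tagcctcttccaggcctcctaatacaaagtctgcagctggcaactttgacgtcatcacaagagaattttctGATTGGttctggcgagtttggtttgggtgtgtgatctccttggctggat
H2-Eb1: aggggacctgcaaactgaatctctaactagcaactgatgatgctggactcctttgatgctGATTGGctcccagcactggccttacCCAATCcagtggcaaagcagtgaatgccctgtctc
Gbp2: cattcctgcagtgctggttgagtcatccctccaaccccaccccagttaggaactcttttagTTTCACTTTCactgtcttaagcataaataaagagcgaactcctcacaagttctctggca
Gbp3: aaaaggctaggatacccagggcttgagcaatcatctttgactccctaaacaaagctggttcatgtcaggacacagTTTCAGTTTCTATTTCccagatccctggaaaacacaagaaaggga
The last base of the match nearest the start lay 44 bases before the annotated start in H2-Aa, 30 in H2-Eb1, 50 in Gbp2 and 30 in Gbp3, and 2 overlapping matches stood in the window of Gbp3 and 2 separate ones in that of H2-Eb1. The Y box letters were found in the promoters (250 bases before to 50 bases after the start) of 5 of the 5 class II genes with an entry, and in 5292 of all 32851 promoters (16.11%). The class II genes include H2-DMa, whose window is not printed and whose 1 match lay farther away, 194 bases before the start. The interferon letters were found in 11 of 23 listed interferon genes with an entry, and in 1131 of all promoters (3.443%). The list counts are of genes and the others of promoter entries, so that their shares are not directly comparable. These are descriptions of letters and do not show binding.

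T and NK cell genes rose in 17 of 31 cases, with none lower and a median of 0.77. Cd3e, a signalling chain of the T cell receptor, measured 4.89, 5.29, 6.79, 5.61 and 5.31 at 28 months, against 3.81, 4.40, 3.81, 3.98 and 4.28 at 4 months (1.52 ± 0.36, adjusted p = 0.00227). Cd3g, another chain, measured 5.83, 7.38, 8.47, 7.67 and 7.03 at 28 months, against 3.96, 4.40, 4.22, 4.33 and 4.21 at 4 months (3.05 ± 0.57, adjusted p = 0.000118). Ccl5, a chemokine of memory T and NK cells, measured 8.61, 9.05, 11.14, 9.69 and 9.79 at 28 months, against 5.66, 6.30, 5.23, 5.99 and 6.90 at 4 months (3.64 ± 0.52, adjusted p = 7.47e-07). In each of them all 28-month bones were above all 4-month bones, and replicate 3 was the highest.

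Cxcr3, a receptor of activated T cells, rose by 2.78 ± 0.37 and Gzmk, a granzyme, by 1.14 ± 0.16. Cd8a and Cd4 rose by 2.29 ± 0.50 and 2.31 ± 0.37, although macrophages can also hold Cd4. Ncr1, a receptor that marks NK cells, and the granzyme Gzma had changes of -0.02 and -0.39 that did not pass. Ccl5 already measured 7.42 to 8.38 at 18 months, above all 4-month bones (1.75, adjusted p = 0.0839). No gene of the list rose between 18 and 4 months, and 9 rose between 28 and 18 months. The count was 16 without 28-month replicate 5 and 12 with the covariate.

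Cxcl13, the chemokine that draws B cells into follicles, measured 9.10, 7.10, 7.75, 9.48 and 6.42 at 28 months, against 4.09, 4.15, 4.36, 4.11 and 3.80 at 4 months. The groups were far apart, and at 18 months it measured 4.27 to 5.28. The change was 3.87 ± 0.78 (adjusted p = 0.000338). It also rose in thigh muscle of the same mice, by 3.97 (adjusted p = 0.00024). Apoc1, an apolipoprotein made by macrophages and liver and measured by 1 probe set, had 7.59, 5.91, 5.49, 5.14 and 7.05 at 28 months, against 3.18, 3.14, 3.12, 2.78 and 3.67 at 4 months. Its 4-month values were near the floor, as were those at 18 months (3.00 to 3.45), and the gene rose by 3.06 ± 0.33 (adjusted p = 1.03e-09).

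**Figure D3:**
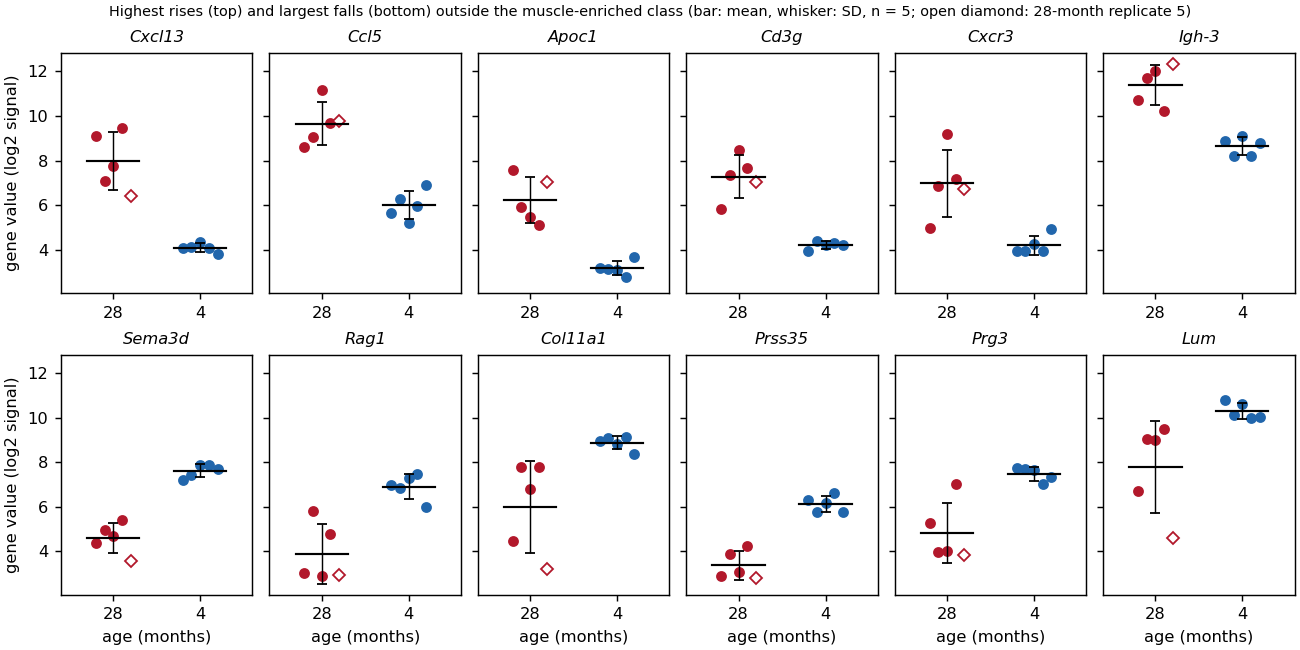
Gene values (log2 signal, vertical axes) of the 6 genes with the highest rises (top row) and the 6 with the largest falls (bottom row) among called genes outside the muscle-enriched class whose groups did not overlap. Arrays of 28 months stand left of those of 4 months. Points are arrays, bars means and whiskers SD (n = 5), with 28-month replicate 5 as an open diamond. Rag1 lay between 2.91 and 5.83 at 28 months and between 6.01 and 7.46 at 4 months.

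B cell precursors, which are formed in marrow, showed lower values. Of 22 genes of the lineage 9 fell and none rose, with a median of -0.55. Rag1, the recombinase that cuts antigen receptor genes, measured 3.01, 5.83, 2.91, 4.80 and 2.92 at 28 months, against 6.96, 6.84, 7.28, 7.46 and 6.01 at 4 months. It was at the floor in replicates 1, 3 and 5 and below every 4-month bone in the other 2. The change was -3.01 ± 0.29 (adjusted p = 2.7e-11). Dntt, the terminal transferase of the same step, measured 3.29, 4.91, 3.15, 4.52 and 3.00 at 28 months, against 5.18, 5.67, 5.35, 5.36 and 4.91 at 4 months (-1.52 ± 0.20, adjusted p = 2.09e-07). The groups met at 4.91 without crossing. Bcl7a fell by 1.32 ± 0.15, Bach2, a repressor of plasma cell fate, by 1.73 ± 0.30 and Vpreb3, a protein of the pre-B cell, by 1.69 ± 0.22.

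At 18 months Rag1 measured 5.42 to 7.11 (change from 4 months -0.51, adjusted p = 0.627), and no gene of the list had changed, whereas 6 fell between 28 and 18 months. Cd79a, the receptor chain of precursor and mature B cells, measured 4.17, 8.79, 9.03, 8.11 and 7.002 at 28 months, against 8.10, 8.31, 8.63, 8.51 and 8.56 at 4 months. Replicate 1 was low and replicates 2 and 3 were above all 4-month bones (-0.999 ± 0.66, adjusted p = 0.299). Genes of mature B cells gave 1 higher and 1 lower of 14, with a median of 0.20. Siglecg fell by 1.13 ± 0.20, and Ltb, a lymphotoxin that T cells also make, rose by 1.66 ± 0.41. The precursor count was 8 without 28-month replicate 5 and 5 with the covariate.

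Plasma cell genes rose in 4 of 17 cases, with a median of 0.38. The 4 were Cd28, a costimulatory receptor of T cells and long-lived plasma cells (1.49 ± 0.38), 2010001M09Rik (now Mzb1), a chaperone of antibody secretion (1.11 ± 0.36), Txndc5, an enzyme of protein folding (0.75), and Prdm1, the factor of plasma cell fate (0.70 ± 0.23). Outside this list, Igh-3 (now Ighg2b), the constant region of IgG2b, measured 10.73, 11.70, 12.00, 10.22 and 12.33 at 28 months, against 8.89, 8.22, 9.10, 8.22 and 8.81 at 4 months. The groups did not overlap (2.75 ± 0.70, adjusted p = 0.00521). At 18 months it was as high, with 13.87, 12.81, 9.88, 10.55 and 10.58 (2.89, adjusted p = 0.0185). Immunoglobulin genes share sequence, so this value may hold signal of related genes. The count of 4 list genes was 1 without 28-month replicate 2, 28-month replicate 3 or 4-month replicate 4, and 2 without 4-month replicate 1 or 5. With the muscle covariate 1 of the 17 rose, with a median of 0.22, and Igh-3 had 1.80 (adjusted p = 0.125), and 1.02 (0.497) without 28-month replicate 5 as well. Between 18 and 4 months 6 list genes rose, with 18-month replicate 1 highest (list mean 8.23, against 6.04 to 6.54 on the other 18-month arrays).

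Several eosinophil genes were lower at 28 months. In the list of eosinophils, basophils and mast cells 8 of 17 fell, with a median of -0.37. The list mean was 6.17, 5.87, 5.50, 6.67 and 7.07 at 28 months, against 6.66 to 6.9965 at 4 months, so that 28-month replicate 5 was the highest of all 10. Leaving it out gave 10 lower genes and a median of -0.72. Prg3, an eosinophil granule protein, measured 5.28, 3.97, 4.02, 7.004 and 3.86 at 28 months, against 7.72, 7.70, 7.64, 7.005 and 7.32 at 4 months. Replicate 4 of the older mice was just under the lowest 4-month bone, and the other 4 were well below it (-2.65 ± 0.26, adjusted p = 3.71e-11). Ear6, a ribonuclease of eosinophils, measured 8.61, 7.47, 7.71, 10.52 and 7.13 at 28 months, against 10.95, 10.68, 11.04, 10.18 and 10.58 at 4 months, and here replicate 4 overlapped (-2.40 ± 0.27). Other members of its gene family are near-identical, so its signal may be shared. Epx, the eosinophil peroxidase, fell by 1.61 ± 0.22, and Prg2, the major basic protein, by 0.79 ± 0.25 (adjusted p = 0.025), a call lost without 28-month replicate 2 or 3 or 4-month replicate 1. The basophil and mast cell genes Mcpt8, Ms4a2 and Cpa3 had changes of -0.51, -0.26 and 0.38 that did not pass. No member had changed at 18 months, while 8 fell between 28 and 18 months. The count was 5 without 28-month replicate 2, 4 without 28-month replicate 3 (median -0.13) and 5 without 4-month replicate 1. It was 4 with the covariate.

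Few neutrophil genes passed the test. Of 27 genes 2 rose, with a median of 0.21, and Ngp, a granule protein, measured 12.58, 12.49, 12.39, 12.22 and 12.78 at 28 months, against 12.51, 12.32, 12.63, 12.25 and 12.48 at 4 months (0.05 ± 0.48, adjusted p = 0.951). The 2 were Ela2 (neutrophil elastase, 0.67 ± 0.20, adjusted p = 0.0182) and Itgb2l (0.53 ± 0.16, 0.0219). Both calls were lost without 28-month replicate 5 or 4-month replicate 5, and that of Itgb2l also without 28-month replicate 1. Without 28-month replicate 5 none rose and 2 fell.

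Erythroid genes fell in 14 of 23 cases, with a median of -1.03, and most of these calls needed 1 mouse. Kel, a blood group antigen, measured 9.36, 8.35, 8.51, 9.53 and 3.17 at 28 months, against 9.44, 9.88, 9.80, 9.69 and 9.46 at 4 months. Replicate 5 was near the floor. The change was -1.87 ± 0.46 (adjusted p = 0.00369) with it and -0.72 (0.000378) without it. Ermap and Klf1, the erythroid transcription factor, fell by 1.36 ± 0.34 and 1.18 ± 0.30, and by 0.57 and 0.50 without replicate 5. Without replicate 5 the list had 5 lower genes and a median of -0.32, and in bone fitted alone, where the spread comes from bone arrays only, none passed, with or without the covariate (Kel, adjusted p = 0.128 and 0.165 with the covariate). In replicates 2 and 3 the list mean was 8.59 and 8.73, below all 4-month bones, and in replicates 1 and 4 it was 9.28 and 9.23, within their range of 9.21 to 9.37.

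Megakaryocyte genes rose in 4 of 19 cases (median 0.30), Slamf1, Gp1bb, a subunit of the platelet receptor for von Willebrand factor, F2rl2 and Itga2b, by 0.67 ± 0.13, 0.67 ± 0.13, 0.62 ± 0.15 and 0.46. Pf4, the platelet chemokine, changed by 0.28 ± 0.28 (adjusted p = 0.513). Of 14 stem and progenitor genes 1 fell, Tal1 (-0.51 ± 0.13, adjusted p = 0.00484; -0.34 and 0.0606 without 28-month replicate 5). Cell cycle genes fell in 3 of 31 cases, with all 31 changes below 0 and a median of -0.50. The 3 were Ccne1 (-1.01 ± 0.29), Aurka (-0.86 ± 0.27) and Birc5 (-0.67 ± 0.19). The count was 10 without 28-month replicate 1, 5 without 28-month replicate 4, 0 without 28-month replicate 5 and 1 without 4-month replicate 2. Mki67, the proliferation antigen, measured 11.24, 10.34, 10.34, 10.95 and 9.68 at 28 months, against 10.95, 11.06, 11.14, 11.13 and 10.34 at 4 months (-0.41 ± 0.41, adjusted p = 0.505), with 28-month replicate 1 the highest of all 10.

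Adipocyte genes rose in 8 of 23 cases, none fell, and the median was 0.85. Gpd1, which makes the glycerol backbone of fat and is also a muscle enzyme, measured 6.997, 8.004, 8.60, 7.72 and 7.80 at 28 months, against 6.29, 4.46, 5.50, 4.88 and 5.65 at 4 months (2.47 ± 0.51, adjusted p = 0.000533). Lpl, lipoprotein lipase, and Pnpla2, the first lipase of fat breakdown, rose by 1.34 ± 0.28 and 1.34 ± 0.26. The hormone of fat cells, Adipoq, measured 6.46, 7.76, 9.58, 7.32 and 4.86 at 28 months, against 8.04, 7.73, 7.99, 7.79 and 6.18 at 4 months. It overlapped widely and did not pass (-0.35 ± 0.55, adjusted p = 0.696). Replicate 3 had an adipocyte list mean of 8.18, against 6.36 to 6.91 on the other 28-month arrays and 5.89 to 6.41 on the 4-month arrays, and without it 4 genes rose with a median of 0.42. With the covariate 5 rose. In thigh muscle 10 of the 23 rose, and 1637 of all 15830 genes.

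Stroma and endothelium changed in few genes. Of 20 stroma genes 1 rose, Thy1 (1.40 ± 0.37, adjusted p = 0.00693, lost without 28-month replicate 3), which T cells also carry. Cxcl12 and Lepr, which mark the stroma of the stem cell niche, had changes of -0.58 and -0.29 that did not pass. Of 20 endothelial genes 1 rose, the VEGF receptor Flt1. It measured 6.81, 6.07, 6.83, 6.38 and 6.65 at 28 months, against 5.90, 5.84, 5.69, 5.95 and 5.60 at 4 months, without overlap (0.75 ± 0.22, adjusted p = 0.0168, lost without 28-month replicate 3).

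The signalling genes of bone formation were mixed. In the Wnt list 6 of 32 fell and 1 rose (median -0.12). The ligands Wnt5b and Wnt10b fell by 0.89 ± 0.13 (adjusted p = 1.43e-06) and 0.67 ± 0.14 (0.000771), and Wisp1 (now Ccn4), a target gene, by 1.19 ± 0.21. The inhibitor Wif1 fell by 1.49 ± 0.43 (adjusted p = 0.0126; -1.17 and 0.0826 without 28-month replicate 5). Axin2, a target used as a readout of the pathway, changed by -0.01. In the BMP and TGF-beta list 6 of 35 rose and 7 fell (median -0.14). The largest fall was in Tgfb2, a ligand, which measured 4.52, 4.30, 5.07, 5.47 and 3.75 at 28 months, against 6.73, 6.35, 6.71, 6.41 and 6.84 at 4 months. It did not overlap (-1.99 ± 0.27, adjusted p = 2.18e-07), and it counts in the muscle-enriched class although it fell. The receptor Bmpr1a rose by 0.89 ± 0.15 and Tgfbi, a matrix protein that macrophages also make, by 1.30 ± 0.26. Without 4-month replicate 5 the number of lower genes was 4.

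Of 19 genes tied to senescence or secreted inflammatory factors 4 rose and 1 fell (median 0.09). Ccl8, a monocyte chemokine, measured 5.41, 3.82, 7.12, 6.23 and 5.60 at 28 months, against 3.05, 3.19, 2.95, 2.99 and 3.00 at 4 months (2.60 ± 0.49, adjusted p = 0.000123). Glb1, the lysosomal galactosidase, rose by 1.14 ± 0.20, Tnf by 1.02 ± 0.24 and Il1a by 0.69. Cdkn2a, the locus of the cell cycle inhibitor p16, measured 4.35, 4.27, 4.27, 4.32 and 3.98 at 28 months, against 4.22, 4.38, 4.30, 4.16 and 4.45 at 4 months (-0.06 ± 0.13, adjusted p = 0.765).

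Respiratory chain genes rose in 9 of 31 cases (median 0.31), with Ndufs4 (0.93 ± 0.24), Ndufv2 (0.72 ± 0.17) and Ndufa10 (0.60 ± 0.12) of complex I in front. With the muscle covariate 1 rose and the median was 0.06. The count was 3 without 28-month replicate 3, 5 without 28-month replicate 4, 3 without 4-month replicate 2 and 4 without 4-month replicate 4. No clock gene of 14 passed. Of 15 immediate-early and heat shock genes 1 rose and 2 fell, Ier3, Hsph1 and Egr3. The fall of Hsph1 was lost without any 1 of 7 arrays and that of Egr3 without any 1 of 6. Of 56 splicing factors 2 fell, Hnrnph1 (-0.30 ± 0.10, adjusted p = 0.0296) and Prpf3 (-0.38 ± 0.13, 0.0467), and these calls were lost without 5 and 9 of the 10 arrays, each left out alone, 28-month replicate 5 among them. Lmna, the gene of the nuclear lamins, changed by -0.18 ± 0.19 (adjusted p = 0.523).

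**Figure D4:**
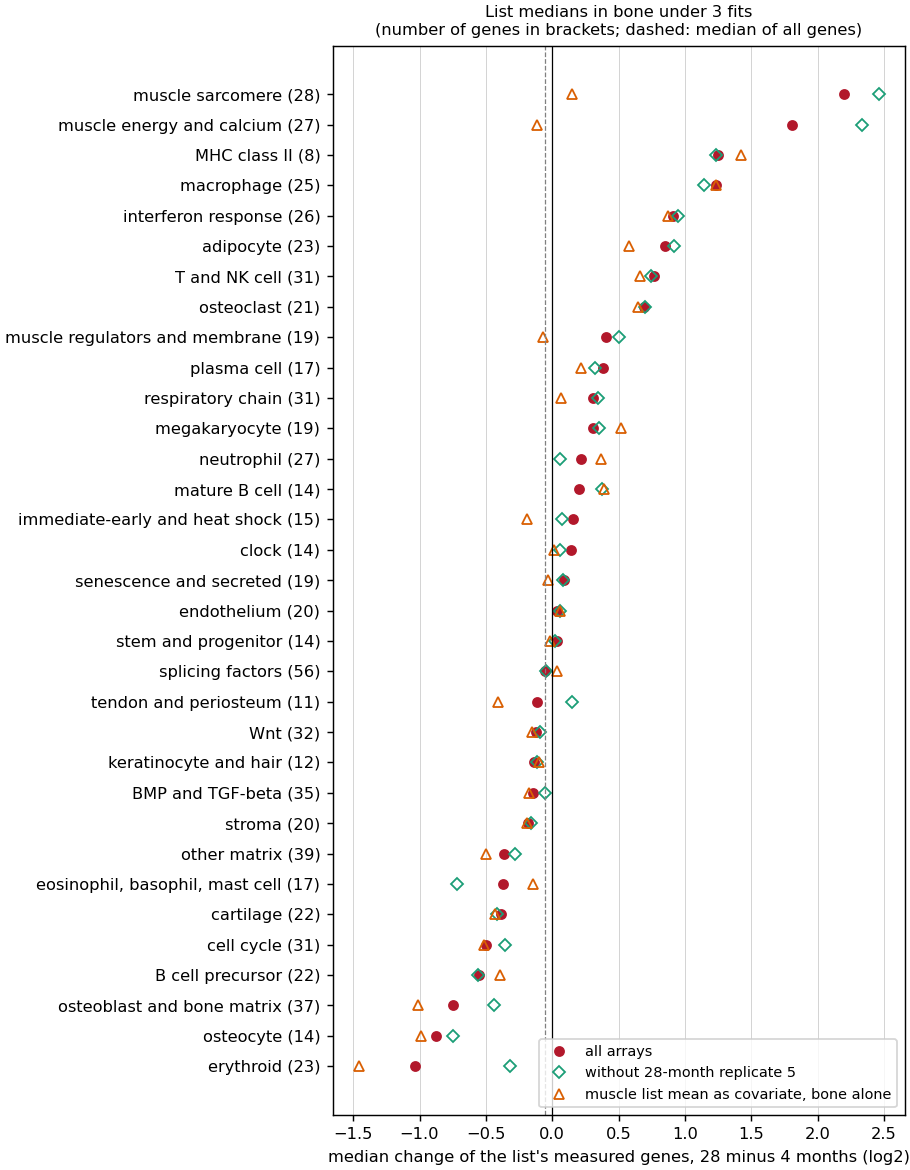
Median change of the measured genes of each of the 33 lists (rows), 28 minus 4 months in log2 (horizontal axis). Filled circles are the fit of all arrays, diamonds the fit without 28-month replicate 5 and triangles the fit of bone alone with the muscle covariate. The dashed line is the median of all genes (-0.05). The sarcomere list, whose genes are averaged in the covariate, moves to 0.15 with it. The erythroid list moves to -0.32 without replicate 5, while the macrophage, class II and osteoclast lists keep their medians.

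Outside the lists, 2 more genes had large falls. Sema3d, a secreted guidance factor, measured 4.37, 4.95, 4.68, 5.40 and 3.58 at 28 months, against 7.21, 7.43, 7.88, 7.87 and 7.71 at 4 months (-3.02 ± 0.33, adjusted p = 1.03e-09). Prss35, a secreted protein of the serine protease family, measured 2.90, 3.90, 3.06, 4.23 and 2.81 at 28 months, against 6.30, 5.78, 6.15, 6.62 and 5.78 at 4 months (-2.75 ± 0.19, adjusted p = 1.54e-16). Neither overlapped. Both had reached these levels at 18 months, with 4.03 to 5.67 for Sema3d and 3.65 to 4.02 for Prss35.

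To ask which changes bone shared with another tissue of the same old mice, the change in bone was tested against that in thigh muscle. It differed in 3987 genes (25.2%), 1539 with the higher change in bone and 2448 with the higher change in muscle. Of the 452 called genes 261 differed, 221 of them outside the muscle-enriched class. The called genes were picked by their change in bone, which is part of this difference, so that a high count is partly built in. Of the called genes that passed in both tissues, 65 changed in the same direction and 5 in opposite directions. Sost had a change of -1.80 in bone and 0.42 in muscle (difference -2.22, adjusted p = 0.000141), and Rag1 -3.01 and -0.08 (difference -2.93, 1.56e-06). Oscar had 1.31 in bone and 0.05 in muscle (difference 1.26, 2.08e-06), and Gbp2 2.19 and 0.37 (1.82, 0.0184). Loxl2 fell in both tissues, by 1.75 in bone and 1.24 in muscle (difference -0.50, adjusted p = 0.262), and C1qa rose in both, by 1.89 and 1.23 (0.66, 0.277). Flt1 rose in bone by 0.75 but fell in muscle by 1.03 (difference 1.78, adjusted p = 7.23e-05). Adipoq rose by 2.77 in muscle and changed by -0.35 in bone (difference -3.12, adjusted p = 0.00341).

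**Figure D5:**
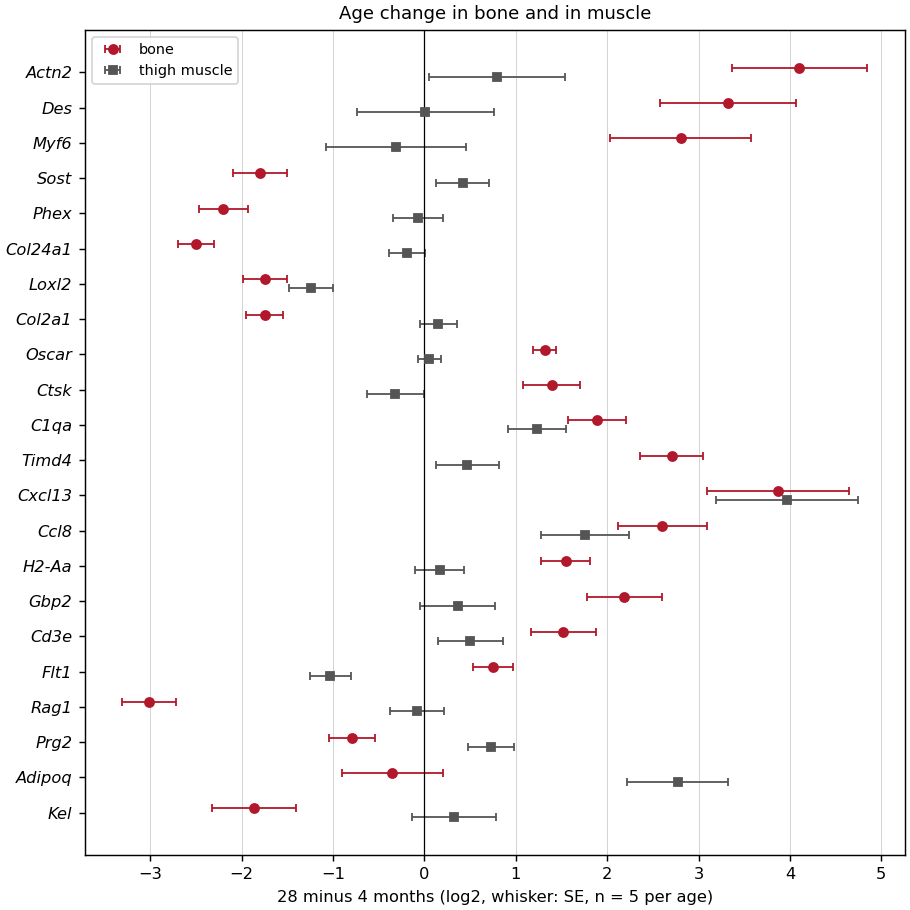
Age change (28 minus 4 months, log2, horizontal axis) of 22 genes (rows) in bone (red circles) and in thigh muscle (grey squares). Whiskers are SE from the fit of all arrays, whose spread is pooled over all tissues. They are not the spread of the 5 arrays per age of the tissue shown. Flt1 lies at 0.75 in bone and -1.03 in muscle, and Cxcl13 lies at 3.87 in bone and 3.97 in muscle.

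Exon arrays also report whether the exons of a gene change relative to each other. The test was made in 7834 genes whose mean level did not pass a test between the ages (unadjusted p of 0.05 or more). This does not show that their level was unchanged. Col1a1 was among them, although its 28-month values all lay below its 4-month values (-1.29). Of the 7834 genes, 1879 (24%) had a probe set pattern that differed between 28 and 4 months, by an F-test of the interaction of age and probe set with an adjusted p below 0.05. Single arrays moved this count, to between 875 and 1031 without 28-month replicate 3, 4 or 5, and limma's diffSplice gave 562. The F-test treats the probe sets of 1 array as independent values. Its p-values thus do not count mice as the only replicates and may be too small. Eif4g1, a translation initiation factor, was among the 3 genes with the smallest adjusted p (2.14e-12; diffSplice 1.96e-09). Its probe set 4513400 lay -3.55, -4.59, -4.52, -4.76 and -5.08 from the gene mean at 28 months, against -3.28, -2.23, -3.24, -2.78 and -2.52 at 4 months. All 28-month values were lower. In Abcc5, an export pump, probe set 5283813 had -0.46 ± 0.40 at 28 months and 0.57 ± 0.56 at 4 months (SD, n = 5; adjusted p = 2.39e-13, diffSplice 4.46e-08), with overlap. Col1a1 passed the F-test (2.14e-12) and not diffSplice (adjusted p = 1).

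In Mef2c, a transcription factor with a muscle isoform, probe set 4827019 lay -2.31 ± 0.91 from the gene mean at 28 months and -4.82 ± 1.21 at 4 months, against -0.26 in thigh muscle, -2.0042 in thymus and -3.87 in white adipose tissue at 4 months. This gene was chosen after its values were seen. Lmna, Mki67 and Cdkn2a did not pass (adjusted p = 0.473, 0.238 and 0.883).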

How the data were processed

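RNA of mouse tissues was hybridised to Affymetrix Mouse Exon 1.0 ST arrays, 1 colour each. The deposited log2 probe set signals were made by the authors in Partek. There RMA with an adjustment for the GC content of probes removed background, and all arrays were quantile normalized together. Probes were summarised by median polish, with annotation on mm9. The versions of these tools are not repeated here. Depth has no meaning for arrays, and their number limits the precision.

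Each of 15830 genes was given the mean over its probe sets with 1 gene symbol (179614 of 194293 probe sets; 1331 had several symbols and 13348 none). Older symbols were matched to RefSeq, and 13745 were current in GRCm38.p6. limma 3.58.1 (R 4.3.3) was fitted once to the means of 13 groups over 65 arrays, with Benjamini-Hochberg adjustment over all genes, so p-values printed as adjusted p are from this fit unless another is named. Alternatives were bone alone, probe set and gene filters, other summaries, within-bone quantile normalization, leaving out each array, a replicate or mouse block, and the muscle covariate; those without 28-month replicate 5 in combination were chosen after seeing the data. Replicate numbers are separate mice. Exon patterns were tested in genes with at least 3 probe sets of a mean of at least 3. Scripts were tested on simulated data.

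The genes and the 33 lists (769 of 885 listed genes measured) were chosen with earlier results of these data known. Named genes were the 6 highest and lowest changes outside the muscle-enriched class without overlap, the 4 highest and lowest in it, the 3 smallest adjusted p of each list with a call, the 3 first exon pattern genes and a fixed set of markers, 5 of which were not analysed here. Other list members are named for their role or to complete a count, after their values were seen. Columns of other samples were not used.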

Additional observations from a re-analysis of the deposited data

Results flagged for a closer look

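In groups of 5 arrays, 306 groups of named genes and list means were screened for an array whose gap to the next exceeded Dixon's critical value (0.71 of the range), which chance exceeds in about 1 of 20 groups. 25 did, 14 at 28 months and 11 at 4 months, with 12 in 28-month replicate 5, 7 in 4-month replicate 5 and 3 in 4-month replicate 1. No cause was tested.

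28-month replicate 5 was lowest for the erythroid genes Kel (3.17), Ermap (5.83) and Klf1 (3.97) and the erythroid list mean (5.36). It was also lowest for Tspan8 (4.93), Acan (2.87), Cdkn2a (3.98), Lmna (6.17) and the cartilage list mean (3.48). It was highest for Eng (8.23), Ndufs4 (8.09) and the stem and progenitor list mean (5.88). Of the other 28-month arrays, replicate 3 was highest for Cd28 (6.51) and replicate 1 lowest for Rbm5 (8.23).

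At 4 months, replicate 5 was lowest for Col24a1 (5.12), Mmrn2 (5.62), Itgb2l (7.89), Glb1 (6.41), Adipoq (6.18), Mki67 (10.34) and the osteoblast and matrix list mean (7.35). Replicate 1 was highest for Cacng1 (5.51), Egr3 (6.03) and the immediate-early and heat shock list mean (7.24), and replicate 2 for 4833422F24Rik (4.24).

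Between tissues, the age change in bone minus that in thigh muscle passed the test in 3987 genes (limma). Of the named genes that passed in both tissues in opposite directions, Flt1 changed by 0.75 in bone and -1.03 in muscle (difference 1.78), Col10a1 by -0.87 and 0.58 (difference -1.45) and Prg2 by -0.79 and 0.73 (difference -1.52).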

How the results depend on the processing

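The 452 called genes (326 higher and 126 lower) were 343 to 589 in the alternatives of samples, gene filters, summary, normalization, block and covariate not given by their own value here, with more higher than lower genes in each. Restricting to probe sets with a mean of at least 5 gave 810 (418 higher and 392 lower, against 326 and 126), and the covariate without 28-month replicate 5 gave 164. Leaving out 1 array gave 381 to 529. The 75 called genes of the muscle-enriched class were 47 in bone alone, 36 with quantile normalization within bone, 15 with the covariate and 7 with the covariate without 28-month replicate 5, and 43 to 105 when 1 array was left out. The 257 list members past the test (153 higher, 104 lower) were 248 in bone alone, 158 with the covariate and 71 when 28-month replicate 5 was also left out. They were 205 to 258 when 1 array was left out. With the covariate and without 28-month replicate 5, 305 of all 15830 genes rose and 94 fell. There 2 of 37 osteoblast and matrix, 1 of 14 osteocyte, 0 of 22 cartilage, 1 of 22 B precursor and 1 of 17 eosinophil list genes fell. Of the others, 12 of 21 osteoclast, 14 of 25 macrophage, 5 of 8 class II and 7 of 26 interferon genes rose. So did 4 of 31 T and NK and 0 of 23 adipocyte genes. In bone alone without the covariate, 11 of 37 osteoblast and matrix, 9 of 14 osteocyte and 9 of 22 cartilage list genes fell. So did 11 of 22 B precursor and 6 of 17 eosinophil list genes. In the same fit 12 of 28 sarcomere, 17 of 21 osteoclast, 20 of 25 macrophage and 6 of 8 class II genes rose. Likewise 18 of 26 interferon, 16 of 31 T and NK, 9 of 23 adipocyte and 8 of 31 respiratory chain genes rose. Of all 15830 genes 394 were called in this fit, 298 higher and 96 lower. The share of all genes that rose or fell in it is not given here. Genes with a changed exon pattern were 1879, and 1232 with a filter at 5, 4098 with no genes removed, 562 with diffSplice and 875 to 2566 when 1 array was left out. The difference between bone and muscle gave 3020 to 4114 genes when 1 array was left out. Acta1 was reversed, at -0.0705 with the covariate and -0.11 with the covariate without 28-month replicate 5, against 1.70. It is averaged in the covariate, so that this is partly built in. With the covariate, 67 of the 120 named genes kept their direction and side of the threshold and 45 lost it. The cause of these differences was not tested, except that the covariate holds genes of the class.

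With the replicate number as a replicate block, 361 genes were called, 29 of the class and 210 list members; the numbers do not pair the samples, since same-numbered bones correlated between -0.09 and 0.04.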
